A study of Mus musculus with 6 samples.

Results

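Transcripts of the red cell membrane were examined in nucleated red cell precursors of the marrow (erythroblasts), taken from wild type mice and from mice with a mutant RPS19 transgene. The members are 33 genes chosen by name: 15 of the membrane skeleton and 18 of blood group antigens, channels and other proteins embedded in a membrane. Of these, 30 genes (14 skeleton, 16 surface or otherwise membrane-embedded) were measured, by 66 probe sets annotated to that gene alone, out of 12393 genes and 22626 probe sets on the array. Epb41, Piezo1 and Slc43a1 were not analysed here.

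The red cell skeleton is a meshwork of spectrin tetramers that meet at short actin filaments under the lipid bilayer. Ankyrin ties it to the anion exchanger band 3 and to the Rh complex, and protein 4.1 ties it to glycophorin C at the actin junctions. Many proteins of these complexes carry blood group antigens, their transcripts accumulate as erythroblasts mature, and inherited loss of skeleton or anchoring proteins causes spherocytosis or elliptocytosis.

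The 6 samples were CD71-positive erythroblasts sorted from bone marrow of FVB/N mice, CD71 being the transferrin receptor. The 3 wild type samples carry no stated transgene, and the 3 mutant samples come from mice with the transgene RPS19R62W, a form of a small-subunit ribosomal protein. By its title the series concerns how this mutation acts in Diamond-Blackfan anaemia, in which the marrow makes too few red cells. The transgene's promoter, the mice's ages and any pooling were not stated in the labels. Whether samples of 1 group stem from different mice was not stated either, so each p reflects spread among these samples alone, which may be technical.

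Values are log2 expression values, 1 array per sample, so a difference of 1 is 2-fold. A gene was called changed at an adjusted p under 0.05 in a limma fit over all genes, in which the probe set of highest mean stood for the gene, and a second fit covered every probe set. Differences are mutant minus wild type with the SE of the fit, and values by array are listed for wild type arrays 1 to 3 and then mutant arrays 1 to 3.

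The sort label was checked against marker genes. Erythroid markers (9 of 11 measured) summed to 13.53 to 13.63 on the wild type arrays (log2 of the summed linear values) and to 13.02, 13.59 and 13.66 on mutant arrays 1, 2 and 3. Tfrc, the sort marker, read 12.15, 12.14 and 12.12 in wild type and 11.45, 11.99 and 11.96 in mutant samples. Transcripts of other marrow cells were present on every array, and these sums differed most between the mutant arrays. Neutrophil granule genes (10 of 11 measured, led by Mpo) summed to 14.93 to 15.03 in wild type and to 15.61, 14.48 and 14.03 on mutant arrays 1 to 3. Early progenitor genes (9 of 9) summed to 11.99 to 12.09 in wild type and to 12.21, 11.84 and 11.67, and eosinophil, basophil and mast cell genes (7 of 8) to 9.75 to 9.95 and to 11.43, 9.69 and 8.45. B lineage genes (9 of 10) gave 9.68 to 9.79 in wild type and 9.79, 11.64 and 10.63 in mutant samples. The remaining sums were 10.90 to 11.06 and 10.09 to 11.14 for monocyte and macrophage genes (12 of 12), 8.84 to 8.88 and 9.08 to 9.77 for megakaryocyte genes (7 of 10), 8.80 to 8.96 and 8.51 to 9.64 for T and NK cell genes (8 of 10), and 12.44 to 12.54 and 12.35 to 13.22 for late erythroid genes (7 of 11). The groups also differed in controls: spiked polyadenylated transcripts averaged 8.74 to 8.77 in wild type and 11.58 to 13.47 in mutant samples, and Gapdh read -0.09 to -0.05 at the 3' minus the 5' end in wild type and 0.25 to 0.31 in mutant samples. Mutant array 3 alone read low for Xist (5.78) and high for the Y-linked Eif2s3y (8.34).

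In the gene fit, 0 of the 30 members changed, against 0.331% of all genes tested (limma, adjusted p of 0.071 or more). At an unadjusted p under 0.05, 4 members differed (13.3%), all lower in the mutant, against 17.4% of all genes (8.30% of all genes in that direction). Bsg, Tspo2, Rhag and Aqp1 were these 4. For 6 members (5 lower, 1 higher) the groups did not overlap, which held for 24.7% of all genes (12.7% lower, 12.0% higher). The mutant mean was above the wild type mean for 8 of 30 members, against 49.1% of all genes. In the probe set fit, 6 of the 66 member probe sets changed, against 2.33% of all probe sets. Of these 1 rose and 5 fell, against 0.941% and 1.39% of all probe sets. An unadjusted p under 0.05 was reached by 16 (24.2%), against 19.1%, and the groups did not overlap for 19, against 26.1%. The 6 changed probe sets belong to 4 genes, Stom with 3 of them and Slc4a1, Bsg and Cd47 with 1 each, and probe sets of 1 gene are not independent.

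The members shared a feature that the group comparison does not show: mutant array 1 stood apart from the other mutant arrays. It gave the lowest of the 6 values for 23 of the 30 members (76.7%, against 28.3% of all genes), and for 15 of the 16 surface members. In related lists it was lowest for 5 of 9 erythroid markers (55.6%) and 15 of 30 further red cell surface genes (50%). Among further skeleton and actin genes this held for 2 of 22 (9.09%). For 12 members, a pattern chosen after the values were seen, mutant array 1 lay below every wild type array while mutant arrays 2 and 3 lay above every one (40.0%, against 6.03% of all genes). These 12 were Sptb, Ank1, Epb42, Mpp1, Add1, Dmtn, Slc4a1, Rhd, Kel, Ermap, Slc14a1 and Kcnn4. The pattern was read on the brightest probe set of each gene. No dimmer probe set of Ank1, Epb42, Mpp1, Add1, Slc14a1 or Kcnn4 had it. Of the dimmer Slc4a1 probe sets, the brighter had it and the dimmest did not. The SD of the mutant arrays exceeded that of the wild type arrays for all 30 members (77.7% of all genes), with a median SD over members of 0.49 in mutant and 0.086 in wild type samples. The summed erythroid markers were lowest on the same array, by the values given above. The summed late erythroid genes, at 12.44 to 12.54 in wild type, read 12.35, 13.22 and 12.95 on mutant arrays 1, 2 and 3. This sum had the pattern of those 12 members, but most genes in it did not. On mutant array 1, 4 of these 7 genes were above their wild type mean (median 0.28), and 2 of 7 were lowest there. The part of any of these lists in the result was not tested. In sorted bulk samples, fewer cells of a type and less RNA per cell cannot be told apart.

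**Figure D1:**
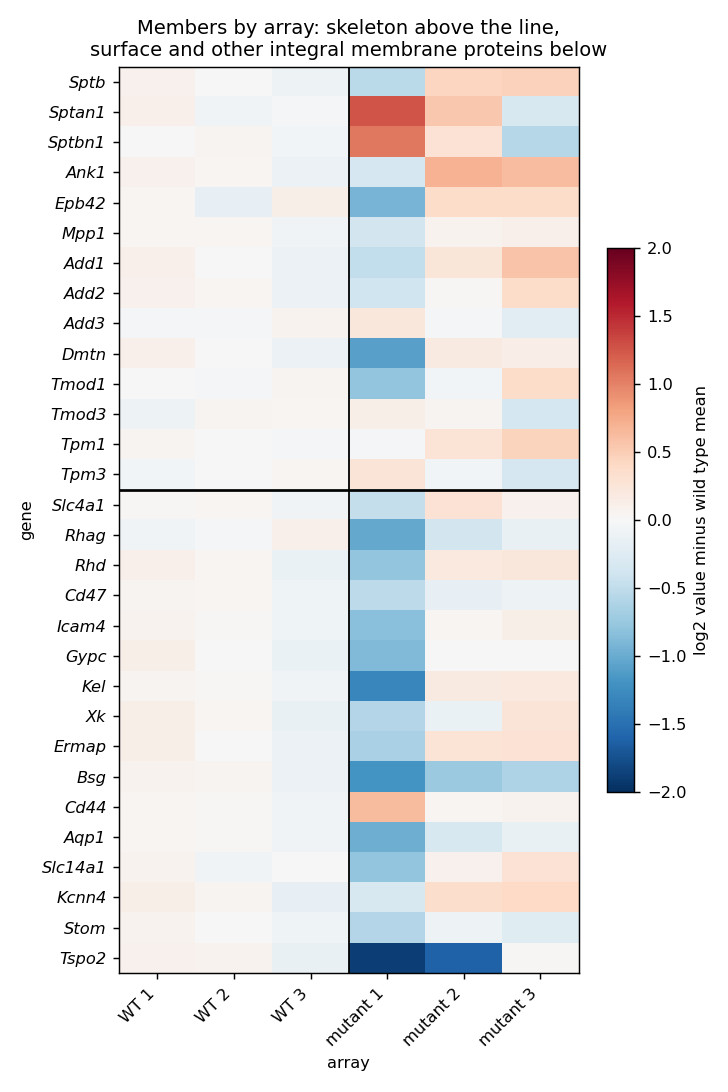
Heat map of the 30 measured members (rows) on the 6 arrays (columns), coloured by the log2 value minus the mean of the 3 wild type arrays, with skeleton genes above the horizontal line and surface or other integral membrane genes below. Mutant array 1 is the lowest array for 23 of 30 genes, whereas Sptan1, Sptbn1 and Cd44 are highest there.

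Skeleton transcripts were compared with those of surface and other embedded proteins on each array, as the median over genes of the log2 value minus the wild type mean. On mutant array 1 the skeleton median was -0.36 and the surface median -0.79. Mutant array 2 gave 0.22 and 0.02, and mutant array 3 gave 0.25 and 0.08. The surface median was thus below the skeleton median on each mutant array, by 0.44, 0.19 and 0.17. On the wild type arrays the medians differed by -0.02, -0.02 and 0.04. The mean of those same arrays is the reference, so their values centre on it by construction and are no independent baseline. Over the group difference the skeleton median was -0.01 and the surface median -0.24, against a median of -0.0044 over all genes, and 8 of 14 skeleton and 14 of 16 surface members had a lower mutant mean. No test was made of these medians. The surface median took the other sign, 0.06, without mutant replicate 1, and the skeleton median was then 0.15.

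**Figure D2:**
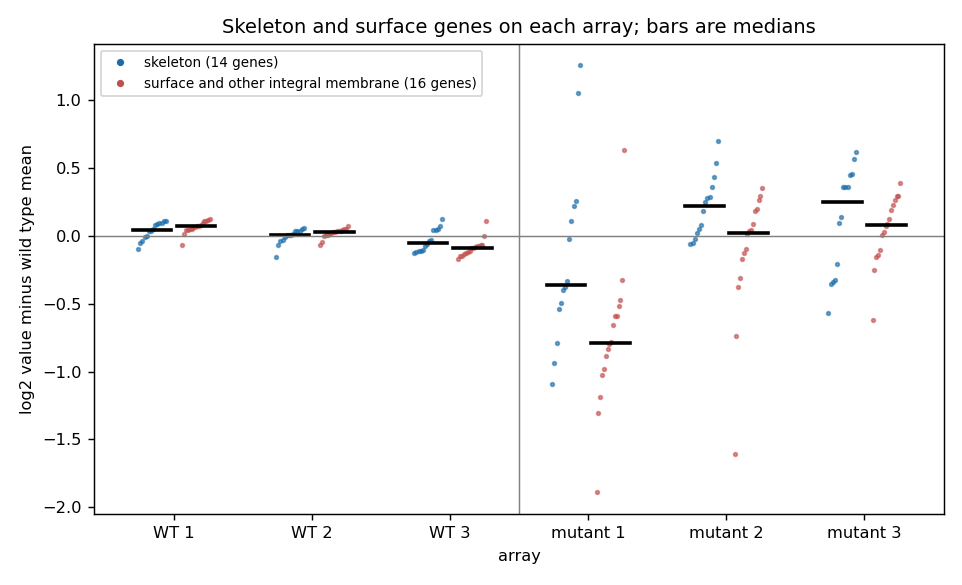
Log2 value minus the wild type mean for each skeleton gene (blue) and each surface or other integral membrane gene (red) on each array, with black bars at the medians. The surface median is below the skeleton median on all 3 mutant arrays, and both are lowest on mutant array 1 (-0.36 and -0.79).

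Spectrins, the rods of the meshwork, differed among themselves by array. Sptb, the beta spectrin of red cells, read 8.24, 8.16 and 8.04 in wild type and 7.61, 8.58 and 8.60 in mutant samples, so mutant array 1 lay below and the other mutant arrays above the wild type range. Its difference was 0.12 ± 0.26 (adjusted p = 0.85, limma). The spectrins of non-erythroid cells ran the other way. Sptan1, an alpha spectrin, read 7.73, 7.57 and 7.60 in wild type and 8.89, 8.17 and 7.31 in mutant samples, a difference of 0.49 ± 0.35. Sptbn1, its beta partner, read 8.76, 8.82 and 8.70 in wild type and 9.81, 9.05 and 8.19 in mutant samples. Both were highest on mutant array 1 and lowest on mutant array 3, and the mutant values spanned the wild type range. The second Sptan1 probe set (8.33, 7.62 and 6.61 in mutant samples) and the dimmer Sptbn1 probe sets of mean above 5 (6.77, 6.21 and 5.74, and 6.36, 5.86 and 5.05) kept this order.

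Of all members, 5 were highest on mutant array 1 and lowest on mutant array 3: Sptan1, Sptbn1, Add3, Tmod3 and Tpm3 (16.7%, against 8.55% of all genes). All 5 are skeleton genes that are widely expressed outside the red cell lineage. This was read on the brightest probe set of each gene. The dimmer Add3 probe sets kept the order over all arrays, as did those of Sptan1 and Sptbn1 given above. No dimmer Tmod3 probe set kept it, and on these every mutant value lay below the wild type values. Of the dimmer Tpm3 probe sets, only that with a difference of 0.13 kept it. The summed neutrophil, early progenitor and eosinophil, basophil and mast cell markers had the same order over the mutant arrays. So had those of monocytes and macrophages (11.14, 10.90 and 10.09) and of T and NK cells (9.64, 8.86 and 8.51). Gene by gene, mutant array 1 was highest of all arrays for 10 of 10 neutrophil genes and 7 of 9 early progenitor genes. It was highest for 6 of 7 eosinophil, basophil and mast cell genes. For the last 2 lists this held for only 2 of 12 and 2 of 8 genes, and 9 of the 12 were below their wild type mean there. The part of these lists in the result was not tested.

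**Figure D3:**
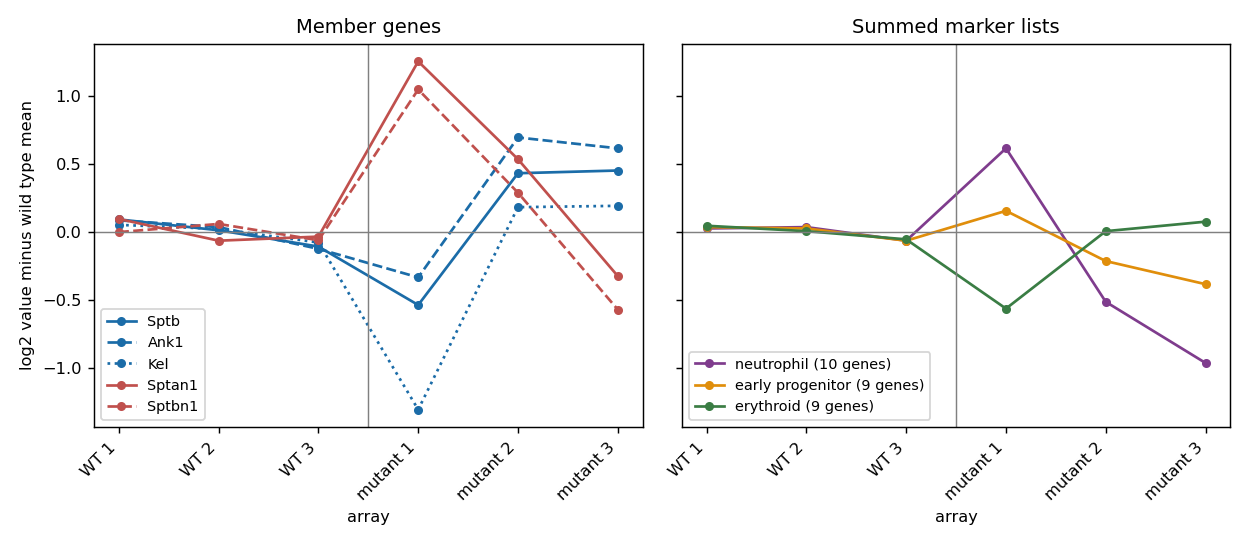
Log2 value minus the wild type mean on the 6 arrays for 5 members (left) and for the summed marker lists of neutrophils, early progenitors and erythroid cells (right). Sptan1 and Sptbn1 share with the neutrophil sum the order mutant 1 highest, mutant 3 lowest, whereas Sptb, Ank1 and Kel share with the erythroid sum the lowest value on mutant 1.

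Among the anchoring proteins, Ank1, the ankyrin that links spectrin to band 3, read 10.17, 10.12 and 9.96 in wild type and 9.75, 10.78 and 10.70 in mutant samples. Mutant array 1 lay below the wild type arrays and the other mutant arrays lay above them, with a difference of 0.33 ± 0.26 (adjusted p = 0.58, limma). The 2 dimmer Ank1 probe sets differed by -0.24 and -0.19. Epb42, protein 4.2, which stabilises the ankyrin link, read 8.53, 8.34 and 8.62 in wild type and 7.56, 8.86 and 8.86 in mutant samples. Its second probe set read 7.80, 7.71 and 7.60 against 6.34, 6.88 and 7.30, a difference of -0.86 ± 0.22 (adjusted p = 0.097 over probe sets, limma). The groups did not overlap on that probe set and overlapped on the brighter one. Mpp1, the p55 protein of the junction with glycophorin C, differed by -0.07 ± 0.14.

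Without mutant replicate 1, 3 members were called in the gene fit, against 9.54% of all genes. Ank1 (0.66, adjusted p = 0.014, limma) and Sptb (0.45, adjusted p = 0.035, limma) were then higher in the mutant and Bsg was lower (-0.68, adjusted p = 0.014, limma). A share of 3 in 30 is near that background. Ank1 and Sptb were called under no other alternative, and over all of them the adjusted p ran from 0.014 to 0.96 for Ank1 and from 0.035 to 0.97 for Sptb.

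Adducins and dematin cap and bundle the actin filaments at the junctions. Dmtn, dematin, read 9.41, 9.31 and 9.19 in wild type and 8.21, 9.49 and 9.44 in mutant samples, a difference of -0.26 ± 0.32 (adjusted p = 0.73, limma). Add1, the alpha adducin, read 9.58, 9.48 and 9.36 against 8.98, 9.72 and 10.04. Mutant array 1 was the lowest of all arrays for both genes and for Add2, the beta adducin. Dimmer probe sets of these adducins gave other values. For Add1 they differed by -0.33 ± 0.15 and -0.44 ± 0.15 (adjusted p = 0.28 and 0.17, limma), the latter with 7.02, 6.89 and 6.69 in wild type and 6.26, 6.32 and 6.69 in mutant samples. For Add2 a dimmer probe set read 6.64, 6.64 and 6.35 against 5.76, 5.80 and 6.39, a difference of -0.56 ± 0.19 (adjusted p = 0.16, limma), and the remaining one differed by 0.13. Add3, the gamma adducin of other tissues, read 7.07, 7.08 and 7.18 against 7.33, 7.09 and 6.90.

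Tropomodulins cap the slow-growing ends of the short filaments and tropomyosins run along them. Tmod1, the red cell tropomodulin, read 8.33, 8.30 and 8.39 in wild type and 7.55, 8.28 and 8.70 in mutant samples, a difference of -0.16 ± 0.26. Tpm1 read 6.84, 6.78 and 6.75 against 6.77, 7.07 and 7.24, a difference of 0.24 ± 0.13 (adjusted p = 0.42, limma). Tmod3, a widely expressed tropomodulin, differed by -0.07 ± 0.14 and Tpm3 by -0.05 ± 0.15. One dimmer Tpm3 probe set was lower on every mutant array, with 8.21, 8.17 and 8.16 against 7.95, 7.64 and 7.38, a difference of -0.53 ± 0.15 (adjusted p = 0.11, limma). The 5 Tpm3 probe sets disagreed in sign, from -0.53 to 0.13.

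**Figure D4:**
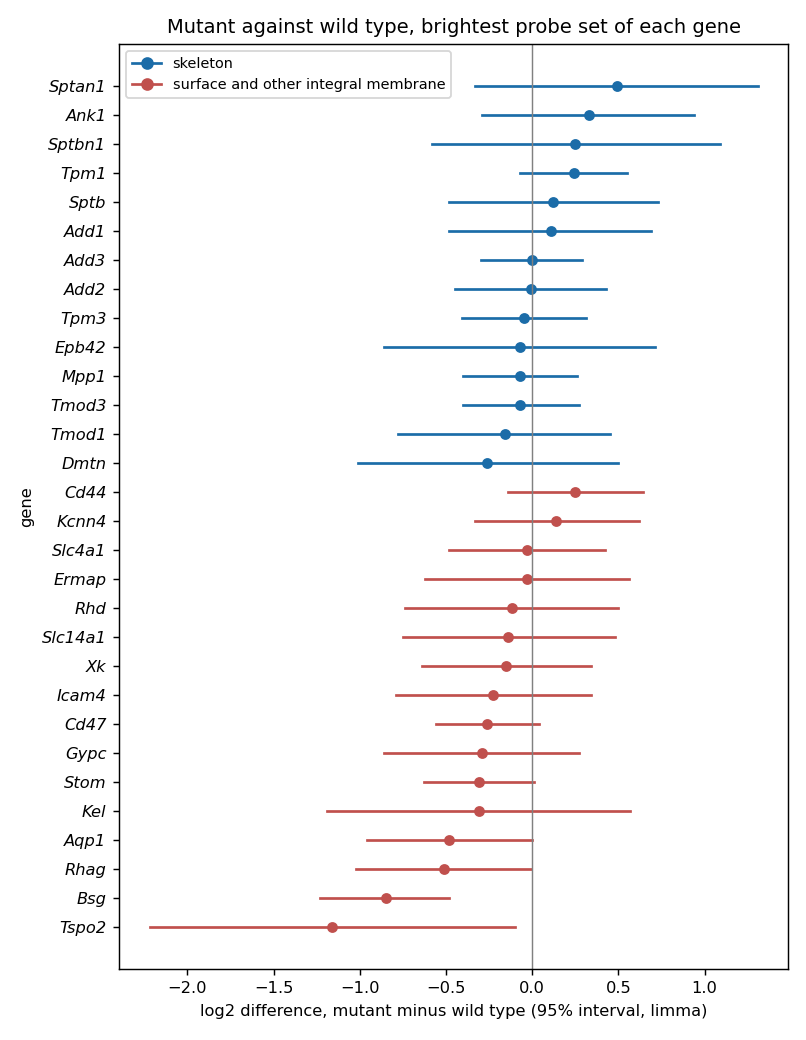
Log2 difference, mutant minus wild type, for the brightest probe set of each of the 30 members, as points with the 95% interval from limma, in blue for skeleton and red for surface or other integral membrane genes. None passes the adjusted threshold. The intervals of Tspo2 (-2.22 to -0.10), Bsg (-1.23 to -0.48) and Rhag (-1.02 to -0.01) lie below 0. That of Aqp1 (-0.96 to 0 as rounded) ends just below 0.

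Band 3 and the Rh complex form the ankyrin-bound centre of the membrane. Slc4a1, band 3, was measured by 3 probe sets. The brightest read 11.58, 11.61 and 11.50 in wild type and 11.09, 11.86 and 11.65 in mutant samples, a difference of -0.03 ± 0.19, and the next differed by 0.09 ± 0.12. The dimmest fell from 6.95, 6.89 and 6.83 to 4.46, 5.52 and 5.46, which is 3.34-fold lower (-1.74 ± 0.27, adjusted p = 0.028, limma, over probe sets). The groups did not overlap on this dim probe set and overlapped on the other two. The call was lost without a shared variance (adjusted p = 0.14), with a replicate block (adjusted p = 0.056) and without any 1 wild type array, with differences of -1.93 to -1.39 over the arrays left out. The range between the 3 differences, 1.83, ranked 13 among 4956 genes with several probe sets, for which the median range was 0.27.

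Rhag, the Rh-associated glycoprotein that carries the Rh proteins to the surface, read 10.23, 10.25 and 10.40 in wild type and 9.27, 9.92 and 10.15 in mutant samples. All mutant arrays lay below the wild type arrays, with a difference of -0.51 ± 0.21 (adjusted p = 0.28, limma). Rhd, the Rh protein itself, read 10.64, 10.58 and 10.41 against 9.76, 10.74 and 10.77, a difference of -0.12 ± 0.26. Icam4, the LW antigen bound to the Rh complex, read 8.88, 8.84 and 8.73 against 7.98, 8.85 and 8.94, and Gypc, glycophorin C of the Gerbich antigens, 9.56, 9.44 and 9.31 against 8.55, 9.45 and 9.44. For these last 3 genes mutant array 1 was the only mutant array below the wild type values.

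Cd47, a partner of the Rh complex that signals to macrophages, was measured by 4 probe sets. The brightest read 11.75, 11.73 and 11.61 in wild type and 11.18, 11.53 and 11.59 in mutant samples, a difference of -0.26 ± 0.13 (adjusted p = 0.35, limma). The dimmest rose from 4.76, 4.70 and 4.87 to 5.63, 5.72 and 5.96, a change of 0.99 ± 0.12 or 1.99-fold (adjusted p = 0.011, limma, over probe sets). It alone of the 4 was called, a call lost without any 1 wild type array and without a shared variance (adjusted p = 0.071), and the range between the probe sets, 1.26, ranked 43 among the 4956 genes.

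Promoters of 3 members are shown because they hold the motif AGATAA, and those of Stom and Tspo2 because their differences were among the largest. All 5 genes were lowest on mutant array 1, and the choice was made after the values were seen. Of the 30 measured members, 23 matched a RefSeq promoter entry (GRCm38.p6), with 28 start sites; Ank1, Bsg, Dmtn, Gypc, Slc14a1, Slc4a1 and Tmod3 did not. In the 250 bases before the start, AGATAA, the core of sites bound by the GATA factors, was found on either strand in 7 of these 28 windows (25.0%), against 9.99% of all 32851 windows. CCNCNCCC, a motif of the KLF factors, was found in 16 of 28 (57.1%), against 45.9%. Of the members lowest on mutant array 1, 17 had a window and 5 of them held AGATAA, as did 2 of the 6 other members with a window. A match is a description of the letters and not a bound site. Each line runs 5' to 3' on the gene's strand, with matches of either motif or its reverse complement in capitals.

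Kel: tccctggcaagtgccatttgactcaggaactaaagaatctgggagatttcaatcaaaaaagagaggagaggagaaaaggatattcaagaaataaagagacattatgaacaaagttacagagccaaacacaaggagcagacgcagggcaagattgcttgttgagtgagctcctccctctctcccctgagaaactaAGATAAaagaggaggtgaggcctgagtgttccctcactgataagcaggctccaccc
Icam4: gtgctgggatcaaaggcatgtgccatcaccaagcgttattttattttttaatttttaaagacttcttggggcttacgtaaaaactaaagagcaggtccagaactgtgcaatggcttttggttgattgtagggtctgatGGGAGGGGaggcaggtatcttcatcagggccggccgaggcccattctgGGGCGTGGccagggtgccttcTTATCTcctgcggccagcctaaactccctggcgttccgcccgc
Rhd: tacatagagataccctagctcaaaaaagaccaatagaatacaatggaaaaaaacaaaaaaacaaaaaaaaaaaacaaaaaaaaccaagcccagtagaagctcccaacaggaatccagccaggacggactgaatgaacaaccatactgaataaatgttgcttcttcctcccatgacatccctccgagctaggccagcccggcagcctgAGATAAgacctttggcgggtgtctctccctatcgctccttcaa
Stom: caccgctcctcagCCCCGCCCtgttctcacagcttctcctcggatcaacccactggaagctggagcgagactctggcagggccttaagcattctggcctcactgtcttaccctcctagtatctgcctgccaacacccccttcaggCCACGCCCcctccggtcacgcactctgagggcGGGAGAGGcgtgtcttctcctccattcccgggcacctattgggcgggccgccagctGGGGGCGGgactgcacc
Tspo2: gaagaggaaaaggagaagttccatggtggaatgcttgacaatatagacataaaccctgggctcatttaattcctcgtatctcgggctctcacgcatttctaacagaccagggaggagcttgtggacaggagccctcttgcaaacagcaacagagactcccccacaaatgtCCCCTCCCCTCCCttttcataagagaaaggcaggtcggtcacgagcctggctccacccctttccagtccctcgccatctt

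The windows lie at chr6:41704326-41704575 (minus strand) for Kel, chr9:21029182-21029431 (plus strand) for Icam4, chr4:134864286-134864535 (plus strand) for Rhd, chr2:35337010-35337259 (minus strand) for Stom and chr17:48451502-48451751 (minus strand) for Tspo2. AGATAA begins 56 bases before the start in Kel and 43 in Rhd, and its reverse complement 43 before in Icam4. It is in neither the Stom nor the Tspo2 window. In the Stom window 4 matches of CCNCNCCC or its reverse complement are marked. The 2 in the Tspo2 window overlap each other. No match of one motif overlapped a match of the other in a member's window.

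The other blood group carriers included the member of lowest p in the gene fit. Bsg, basigin, which carries the Ok antigen and escorts lactate transporters to the surface, read 10.77, 10.75 and 10.58 in wild type and 9.51, 9.96 and 10.08 in mutant samples. All mutant arrays lay below all wild type arrays, and the mean was 1.81-fold lower (-0.85 ± 0.16, 95% interval -1.23 to -0.48). Its 1 probe set was not called among genes (adjusted p = 0.071, limma) and was called among all probe sets (adjusted p = 0.043, limma), a call lost without any 1 wild type array, without mutant replicate 2, without a shared variance (adjusted p = 0.16) and with a replicate block (adjusted p = 0.10). Over the alternatives of the gene fit its adjusted p ran from 0.0057 to 0.35 (limma), and its difference from -0.97 to -0.68. Because the groups did not overlap on its 1 probe set, leaving out an array or changing the fit could not change the sign.

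Aqp1, the water channel of the Colton antigens, read 12.06, 12.04 and 11.94 in wild type and 11.03, 11.70 and 11.86 in mutant samples, so the groups did not overlap, with a difference of -0.48 ± 0.21 (adjusted p = 0.28, limma). Kel, the Kell endopeptidase, had a wide spread, with 10.26, 10.23 and 10.13 against 8.90, 10.39 and 10.40, a difference of -0.31 ± 0.38. Xk, which is disulfide-bonded to Kell and X-linked, differed by -0.15 ± 0.21 on its brighter probe set. On the other it read 5.17, 5.06 and 5.15 against 4.26, 4.60 and 4.94 (-0.52 ± 0.17, adjusted p = 0.16, limma). Ermap, the Scianna antigen, read 11.75, 11.63 and 11.52 against 10.98, 11.90 and 11.93, and Slc14a1, the urea transporter of the Kidd antigens, 9.30, 9.17 and 9.23 against 8.44, 9.32 and 9.53. Both had mutant array 1 below and the other mutant arrays above the wild type values.

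Cd44, a hyaluronan receptor of the Indian antigens that is also abundant on leukocytes and on early erythroblasts, was the 1 member with all mutant values above all wild type values. It read 9.38, 9.37 and 9.27 in wild type and 9.97, 9.38 and 9.41 in mutant samples. Mutant arrays 2 and 3 lay just above the highest wild type array. Its other probe set differed in sign, with 7.61, 7.68 and 7.47 in wild type and 7.19, 6.43 and 6.51 in mutant samples, a difference of -0.87 ± 0.20 (adjusted p = 0.073, limma, over probe sets).

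Stom gave the largest differences of any member, and its probe sets disagreed. Stomatin is a hairpin protein of the inner leaflet that associates with the glucose transporter and is lost from red cells in overhydrated stomatocytosis. The brightest of 6 probe sets read 10.38, 10.32 and 10.23 in wild type and 9.72, 10.21 and 10.06 in mutant samples, a difference of -0.31 ± 0.14 (adjusted p = 0.30 among genes, limma), and the next differed by -0.79 ± 0.16 (adjusted p = 0.054 over probe sets, limma). The following 3 probe sets fell further. The first of these fell from 8.50, 8.48 and 8.36 to 6.17, 6.21 and 6.62, which is 4.33-fold lower (-2.11 ± 0.14, adjusted p = 0.0013, limma). The second fell from 8.11, 8.01 and 7.92 to 6.01, 5.96 and 6.23, which is 3.85-fold lower (-1.94 ± 0.11, adjusted p = 0.00073, limma). The third fell from 7.98, 7.95 and 7.74 to 5.91, 5.96 and 6.22, which is 3.63-fold lower (-1.86 ± 0.12, adjusted p = 0.0013, limma). The dimmest read 3.47 to 3.75 in wild type and 3.52 to 3.93 in mutant samples.

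The called Stom probe sets ranked 12, 7 and 13 by p among all 22626 probe sets, and all 3 were called under each of the alternatives fitted on probe sets, leaving out any 1 array included. In the gene fit Stom was called on the mean of its probe sets (-1.16, adjusted p = 0.018, limma) and on the probe set of largest spread (-2.11, adjusted p = 0.0011, limma), but not on the brightest. The range between its probe sets, 2.15, ranked 8 among the 4956 genes with several. Which part or variant of the transcript each probe set reads was not determined here. The 3' minus 5' value of Gapdh differed between the same groups, as given above, and so did that of actin (1.26 to 1.37 in wild type, 1.58 to 1.88 in mutant samples), whereas that of Tfrc overlapped (1.67 to 1.78 and 1.63 to 1.88). Their part in the result was not tested.

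**Figure D5:**
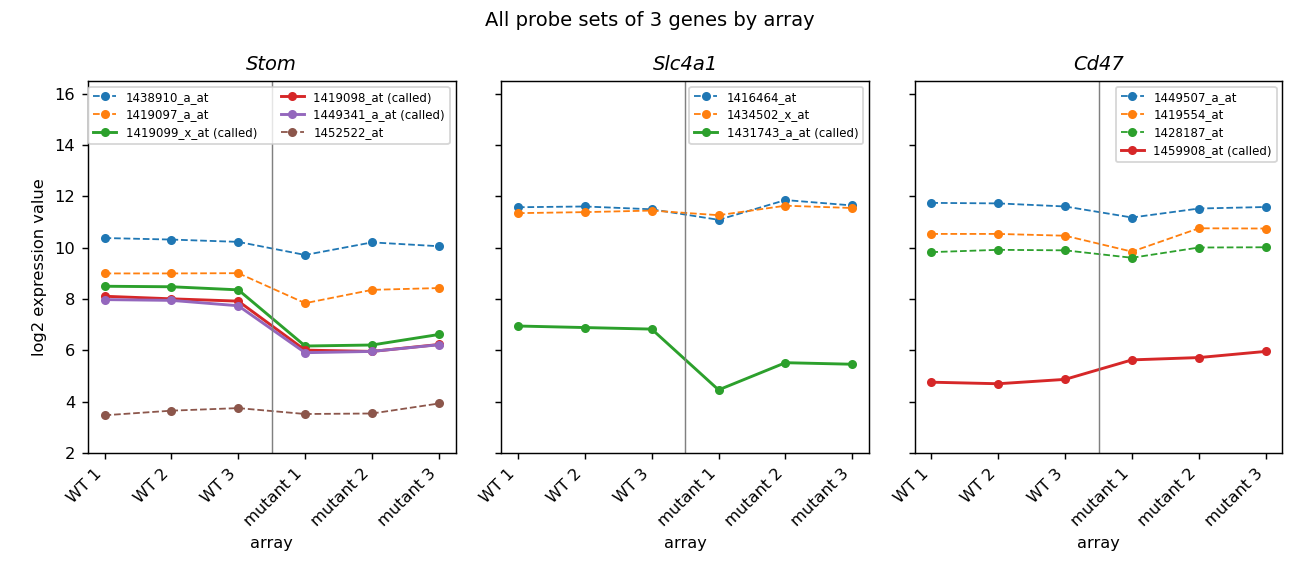
Log2 expression values of every probe set of Stom, Slc4a1 and Cd47 on the 6 arrays, with solid lines for probe sets called at an adjusted p under 0.05 over all probe sets and dashed lines for the rest. In Stom the 3 called probe sets of 6 are lower on all mutant arrays, by 1.86 to 2.11 in the group mean. The 2 brightest Stom probe sets differ by -0.31 and -0.79 and are also lower on all mutant arrays. In Slc4a1 only the dimmest of 3 is lower on all mutant arrays, and in Cd47 only the dimmest of 4 rises.

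Across the members, 18 had more than 1 probe set, and in 10 their differences took both signs; this held for 52.8% of all genes measured more than once. Bsg, Rhag, Aqp1 and Tspo2 had 1 probe set each, so no second measurement bears on them.

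Tspo2, an erythroid cholesterol-binding protein of intracellular membranes, split the mutant arrays. It read 9.10, 9.09 and 8.87 in wild type and 7.13, 7.41 and 9.05 in mutant samples, so mutant arrays 1 and 2 were low and mutant array 3 lay within the wild type range. The difference was -1.16 ± 0.45 (95% interval -2.22 to -0.10, adjusted p = 0.25, limma). Without mutant replicate 3 it was -1.75 (adjusted p = 0.013, limma; 1.61% of all genes called), and over all alternatives the adjusted p ran from 0.013 to 0.56. Kcnn4, the calcium-activated potassium channel of red cells, read 10.85, 10.79 and 10.57 in wild type and 10.41, 11.09 and 11.13 in mutant samples, a difference of 0.14 ± 0.20.

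Other genes of the membrane, from fixed lists, had 0 calls as well. Of 25 further skeleton and actin genes 22 were measured, and the median difference was -0.02. At an unadjusted p under 0.05, 1 differed upward and 1 downward (9.09%). Of all genes 17.4% did so, 9.11% upward and 8.3% downward. Actb, beta actin, read 12.79, 12.79 and 12.83 in wild type and 12.37, 12.34 and 12.19 in mutant samples (-0.50 ± 0.093, adjusted p = 0.071, limma), but the difference was 0.07 on the mean of its probe sets and 0.63 on that of largest spread. Ezr, ezrin, differed by 0.27 ± 0.11, Epb41l2, a relative of protein 4.1, by 0.35 ± 0.17 and Epb41l3, another, by -0.19 ± 0.10. Of 39 further surface genes 30 were measured, 1 differed upward and 4 downward at that level (16.7%, near the share of all genes), and the median was -0.07. Cd59a, which blocks complement lysis, read 7.67, 7.74 and 7.64 against 6.90, 6.91 and 7.22 (-0.67 ± 0.12, adjusted p = 0.063, limma), and Slc16a1, the lactate transporter that basigin escorts, read 11.33, 11.26 and 11.30 against 10.50, 10.94 and 10.82 (-0.54 ± 0.13, adjusted p = 0.10, limma). Itgb1, the beta-1 integrin, differed by -0.48 ± 0.13 and Abcb10, a mitochondrial transporter of erythroid cells, by -0.99 ± 0.32. The 8 blood group glycosyltransferases were dim, with 7 below 4 on every array, and had a median of -0.08, with Gcnt2 at -0.29, Gbgt1 at -0.09, A4galt at 0.12 and Abo at 0.09.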

How the data were processed

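Expression was measured in 3 wild type and 3 mutant RPS19 samples, grouped by the genotype in the labels, with 1 Affymetrix array each. The authors deposited log2 values, made, per the submitters' processing notes, with GCOS, Affymetrix Expression Console and RMA, which corrects background, quantile normalises across arrays and summarises each probe set. No version is named, and no source used here says whether all 6 arrays were normalised in 1 run. The table also holds 64 control probe sets, which were left out of the tests. The platform annotation gave 1 symbol for 20380 probe sets, several for 691 and none for 1555. All 66 member probe sets matched the GRCm38.p6 gene table by Entrez identifier, which changed 0 symbols. The members and lists were chosen with earlier results of these data known.

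The 2 groups were set against each other by two-sided tests without covariates (R 4.3.3; lmFit and eBayes of limma 3.58.1), over 12393 genes and separately over 22626 probe sets, with Benjamini-Hochberg adjustment over the whole table. Members with an unadjusted p under 0.05 in either fit, and the 6 largest differences of each class, have values by array; up to 4 genes of lowest p are named from each further list. On simulated data for this comparison, with 200 features changed, 75% of genes and 59.5% of probe sets changed by 1 on the log2 scale were recovered, and 96.5% and 94.5% of those changed by 2. The simulated noise was independent between features, with the SD pooled over the 2 groups, and changed features were drawn from the whole table. Members varied more among mutant arrays (median SD 0.49, against 0.18 over all genes), so these shares do not give the recovery among members. Alternatives covered the variance prior, array weights, normalisation, a filter on dim values, the choice of probe set, the threshold, the replicate number as a block and leaving out each array. Plots used matplotlib 3.10.9 and pandas 2.3.3 under Python 3.11.15. Precision is limited by having 3 arrays per group.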

Additional observations from a re-analysis of the deposited data

How the results depend on the processing

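Of 0 member genes called, the count became 2 with array weights (Bsg at -0.81 and Tspo2 at -1.32), 1 on the mean of all probe sets (Stom), 4 on the probe set of largest spread (Slc4a1, Cd47, Bsg and Stom) and 1 at an adjusted p under 0.10, and ran from 0 to 3 when 1 array was left out. The 6 member probe sets became 3 without a shared variance and 14 with array weights, and ran from 3 to 12 when 1 array was left out, while the share over all probe sets ran from 0.159% (without wild type replicate 2) to 11.2% (without mutant replicate 1). Other membrane genes went from 0 to 1 with a trended, robust prior, 5 with array weights, 2 above a mean of 6, 3 on the probe set of largest spread and 2 at an adjusted p under 0.10, and ran from 0 to 8 when 1 array was left out. Calls over all genes moved too, to 10.4% with array weights, 0.775% with the trended prior, 110 of 5897 genes above a mean of 6, 0.379% on the mean of probe sets, 4.05% on the probe set of largest spread and 3.09% at an adjusted p under 0.10; over all probe sets they were 0.358% without a shared variance and 11.8% with array weights. The cause of these changes was not tested.

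Some differences changed sign, Actb among them (-0.50 on the brightest probe set). With array weights these were Epb42 (0.27), Mpp1 (0.00067), Add2 (0.02), Dmtn (0.0035), Slc4a1 (0.13), Rhd (0.05), Ermap (0.15) and Slc14a1 (0.05). With quantile normalisation without controls they were Tpm3 (0.0026), Slc4a1 (0.09) and Ermap (0.09). On the mean of all probe sets they were Ank1 (-0.03), Add1 (-0.22), Cd47 (0.17), Cd44 (-0.31), Kcnn4 (-0.15) and Actb (0.07), and on the probe set of largest spread Add1 (-0.44), Cd47 (0.99), Cd44 (-0.87) and Actb (0.63). When 1 array was left out the ranges that crossed 0 were -0.05 to 0.45 for Sptb, -0.14 to 0.67 for Sptbn1, -0.29 to 0.36 for Epb42, -0.15 to 0.08 for Mpp1, -0.13 to 0.41 for Add1, -0.19 to 0.19 for Add2, -0.12 to 0.10 for Add3, -0.48 to 0.16 for Dmtn, -0.43 to 0.15 for Tmod1, -0.16 to 0.08 for Tmod3, -0.20 to 0.10 for Tpm3, -0.19 to 0.19 for Slc4a1, -0.29 to 0.21 for Rhd, -0.40 to 0.08 for Icam4, -0.44 to 0.01 for Gypc, -0.56 to 0.19 for Kel, -0.36 to 0.07 for Xk, -0.19 to 0.28 for Ermap and -0.35 to 0.19 for Slc14a1.

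The skeleton median ran from -0.03 to 0.15 and the surface median from -0.36 to 0.06 when 1 array was left out. The skeleton median moved from -0.01 to -0.13 on the mean of all probe sets and to -0.21 on the probe set of largest spread, and the surface median from -0.24 to -0.31 and -0.40. The skeleton median was -0.03 without Sptan1 and Sptbn1, an alternative chosen after seeing the data. The skeleton median exceeded the surface median in 15 of 15 alternatives, by 0.09 to 0.37. This count is no independent support. The variance prior, the replicate block and centring on the array median cannot change the gap (0.24 in each), and the rest reuse the same arrays. No label pairs the same-numbered samples of the groups. Correlations of their deviations were 0.06, 0.02 and 0.08, which cannot show whether they were processed together. With the replicate number as a block, 0 member genes and 4 of 66 member probe sets were called, and 112 probe sets in all against 528. Dim probe sets carry the least signal over background, and that of Cd47 that was called fell out under the filter on dim values. The called Slc4a1 probe set passed that filter and was still called (adjusted p = 0.025, limma), though its mutant values were 4.46, 5.52 and 5.46.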
